A study of Mus musculus with 8 samples.

Results

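The genes of sterol and isoprenoid synthesis, with the regulators of the SREBP transcription factors that control them, were compared between 2 mouse cell lines, SThdh111/111 and SThdh7/7. The 29 genes were listed by their known place in the pathway, and every probe set that the platform annotation assigns to exactly 1 of them was used. This gave 62 probe sets for 27 genes, of 17389 named genes measured. Acat2, a cytosolic thiolase at the entry of the pathway, and Pdss1, a subunit of the enzyme that makes the ubiquinone tail, are not analysed here, because no probe set was named for either alone.

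Both lines descend from striatal progenitors of embryos of Huntingtin knock-in mice and were immortalised with the same temperature-sensitive viral large T antigen, as is known of lines with these names. The SThdh111/111 samples carry the expanded polyglutamine stretch on both Htt alleles, a model of Huntington's disease, and the SThdh7/7 samples carry the short stretch on both. Total RNA of 4 samples per line was hybridised to Affymetrix whole-genome mouse arrays, 1 array per sample. Each genotype is 1 line, so that the polyglutamine length and any other difference between the lines cannot be told apart. The labels do not say whether the samples came from separate cultures, and p-values then measure only the spread between these samples.

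Cells build sterols and isoprenoids from acetyl-CoA through mevalonate. Farnesyl diphosphate is the branch point, from which squalene, lanosterol and cholesterol are made on one side and the prenyl groups of proteins, dolichol and ubiquinone on the other. The genes of the sterol branch are driven by SREBP-2, a membrane-bound transcription factor that SCAP carries from the endoplasmic reticulum (ER) to the Golgi for cleavage when ER cholesterol is low, while INSIG proteins hold it back when sterols are plentiful. In the brain cholesterol is made locally, since lipoprotein cholesterol does not cross the blood-brain barrier.

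Values are log2 intensities of single probe sets, which show how a transcript differs between arrays but not how 1 gene compares with another. A floor of 7.02 was taken from 27 bacterial control probe sets. Differences are SThdh111/111 minus SThdh7/7, each gene is represented by its probe set with the highest mean over the 8 arrays, and a gene is called at a Benjamini-Hochberg adjusted p under 0.05 in limma's moderated test over all 41409 kept probe sets. All 62 probe sets of these genes passed the filter on dim values, and the representative probe sets of all 27 genes were over the floor on all 8 arrays.

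Correlations over all 45037 probe sets other than controls, before the filter, were 0.922 to 0.924 among SThdh111/111 arrays. They were 0.906 to 0.927 among SThdh7/7 arrays and 0.866 to 0.885 across lines. Samples 1 and 2 of SThdh7/7 differed from the rest in overall level, with median intensities of 173.9 and 174.0 against 136.2 to 147.0 on the other 6 arrays. Of 8 measured markers of striatal projection neurons, Drd1 and Ppp1r1b were below the floor on all arrays of both lines. Foxp1 was over it on all 8, Penk on all SThdh111/111 arrays and 1 SThdh7/7 array, and Drd2, Tac1, Pde10a and Bcl11b on some arrays of each line. Penk and Foxp1 were higher in SThdh111/111 and 0 were lower, beside 13.1% higher and 15.9% lower of all genes. The log2 of the summed linear intensities of the 8 was 11.54 to 11.61 in SThdh111/111 and 10.86 to 11.08 in SThdh7/7. Sums of the marker lists below are given in the same way, and the brightest probe sets weigh most in them. Of 6 mesenchymal markers 5 were higher in SThdh111/111 and 0 lower, and they summed to 15.93 to 16.20 in SThdh111/111, against 13.05 to 13.27 in SThdh7/7. Of the 7 genes of the astrocyte list, Gja1 was higher by 0.72 ± 0.07 and Slc1a3 by 1.82 ± 0.27, while Aldh1l1 was lower by 2.47 ± 0.15 (SE). S100b was below the floor throughout. The list summed to 12.92 to 13.05 in SThdh111/111 and 12.57 to 12.65 in SThdh7/7. Gja1, with means of 12.76 and 12.04, weighed most in that sum, which does not show the fall of Aldh1l1. The oligodendrocyte list (0 of 5 higher, 1 lower; Mog below the floor throughout) summed to 10.48 to 10.68 in SThdh111/111 and 10.68 to 11.07 in SThdh7/7. The microglia list (1 of 7 higher, 0 lower; C1qa, Aif1, Itgam and Ptprc below the floor throughout) summed to 9.81 to 10.14 in SThdh111/111 and 9.54 to 10.01 in SThdh7/7. The part of these markers in the results below was not tested. In such bulk RNA, fewer cells of a type and less RNA per cell cannot be told apart.

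Most of the pathway was lower in SThdh111/111. Of the 27 genes 19 fell, 1 rose and 7 were not called, while 15.9% of all 17389 genes were lower and 13.1% higher. Among the 9860 genes that were over the floor on all 8 arrays, as all 27 of these were, 22.9% were lower and 19.0% higher. The 19 that fell were all enzymes of the sterol route or its entry except Insig1 and Stard4, and their levels in SThdh111/111 were 41.9% to 72.7% of those in SThdh7/7. The median difference over the 27 genes was -0.68, beside -0.09 over all kept genes and -0.04 over those above the floor.

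**Figure D1:**
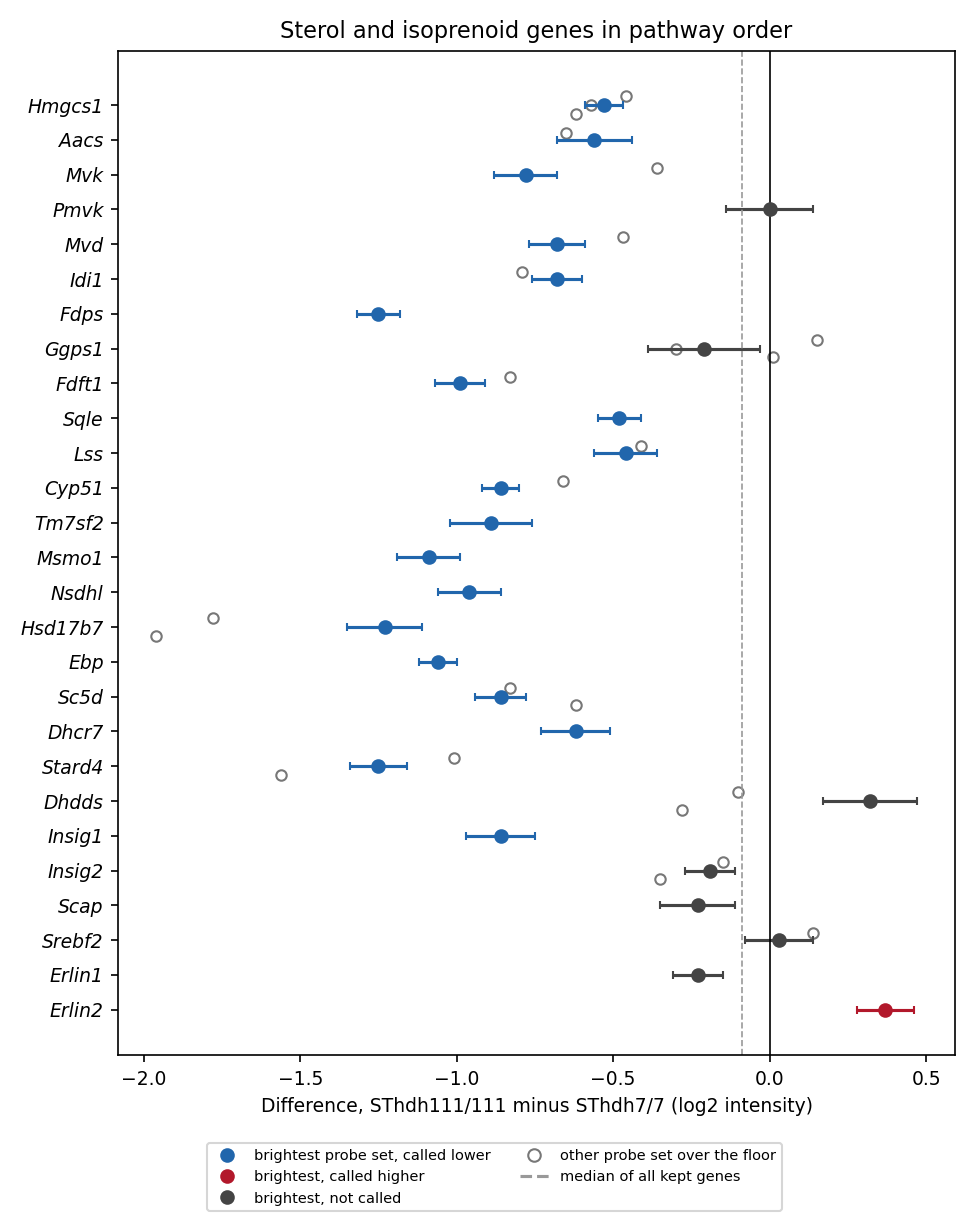
Differences in log2 intensity (SThdh111/111 minus SThdh7/7, horizontal axis) for the 27 genes in pathway order, sterol transfer, dolichol synthesis and regulators last. Filled points are the brightest probe set of a gene with its standard error, coloured by call, and open points are its other probe sets over the floor; from Hmgcs1 to Dhcr7 every filled point except Pmvk and Ggps1 is a called fall.

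The same direction was seen over the separate probe sets. Of the 62 probe sets 35 were lower and 1 was higher, beside 12.6% and 9.87% of all kept probe sets. All 36 calls were among the 51 probe sets over the floor on all 8 arrays, where the median difference was -0.62, and the other 11 gave none. In 21 of the 27 genes every SThdh111/111 array lay below every SThdh7/7 array, as in 17.3% of all genes. Erlin2 was the 1 gene with every SThdh111/111 array above, and 5 genes overlapped.

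Centring of the arrays bears on the smaller differences. The array medians, at intensities of 136.2 to 174.0, lay not far above the floor of 130.0. Centring on them therefore follows dim probe sets, and the trimmed mean was already the same on every array. When each array was centred on its median, the median difference over all kept genes moved to 0.06, and 8.34% of all genes were called lower and 13.6% higher. Under that centring 15 of the 27 genes were lower and 2 higher, with a median of -0.53. The calls of Hmgcs1, Aacs, Sqle and Lss were the 4 lost.

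The entry into the pathway was lower by about a common amount. Hmgcs1, the cytosolic HMG-CoA synthase, is a classical SREBP target, and the 250 bases before its start site are shown because they hold the letters TCACNCCAC, the form of a sterol regulatory element, and NF-Y boxes (CCAAT), which accompany such elements in sterol genes. The sequence is from RefSeq, build GRCm38.p6, chr13:119690101-119690350, plus strand, 5′ to 3′, with matches to TCACNCCAC, CCAAT and CACGTG on either strand in capitals, so that ATTGG is a CCAAT on the other strand.

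Hmgcs1: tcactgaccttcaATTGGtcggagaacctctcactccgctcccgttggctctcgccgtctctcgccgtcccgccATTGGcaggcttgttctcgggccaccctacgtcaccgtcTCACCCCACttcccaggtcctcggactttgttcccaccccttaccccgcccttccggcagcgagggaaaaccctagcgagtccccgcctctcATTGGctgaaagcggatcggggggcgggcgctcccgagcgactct

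In a search of 300 bases, 250 before and 50 after each start site, TCACNCCAC lay in 1 of the 22 measured pathway genes with a RefSeq promoter, Hmgcs1, and in 1.43% of all 13838 measured genes with one. CCAAT lay in 20 of the 22 (90.9%) against 41.9% of all measured genes. The E-box CACGTG was found in 7 of the 22 (31.8%) against 10.4%, and the GC box GGGCGG, which Sp1 binds, in 19 of the 22 (86.4%) against 58.6%. Both strands were searched, and none of these motifs contains another. Fdps, Fdft1, Sqle, Stard4 and Erlin2 were not among the 22. Such matches describe letters near the start and not bound sites.

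Hmgcs1 measured 12.73, 12.67, 12.80 and 12.82 on the 4 SThdh111/111 arrays, against 13.32, 13.22, 13.28 and 13.35 on the SThdh7/7 arrays. The lines did not overlap, and Hmgcs1 fell by 0.53 ± 0.06 (SE; adjusted p = 1.3e-05). Its other 3 probe sets over the floor were called lower too, with differences of -0.62, -0.57 and -0.46. Aacs, which makes acetoacetyl-CoA from ketone bodies, was at 10.23, 10.02, 9.86 and 9.84 in SThdh111/111 and at 10.34, 10.39, 10.71 and 10.75 in SThdh7/7. It fell by 0.56 ± 0.12 (SE; adjusted p = 0.0031) with a gap between the lines smaller than the spread within SThdh7/7.

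Of the 4 measured genes that turn mevalonate into isopentenyl and dimethylallyl diphosphate, 3 fell. Mevalonate kinase (Mvk) was at 9.47, 9.39, 9.61 and 9.55 in SThdh111/111, against 10.47, 10.18, 10.36 and 10.11 in SThdh7/7, a difference of -0.78 ± 0.10 (SE; adjusted p = 6.4e-05). Mvd, the decarboxylase, differed by -0.68 (adjusted p = 4.8e-05), and Idi1, the isomerase, also by -0.68 (adjusted p = 2.9e-05). Both bright probe sets of each of these 3 genes were called lower, with the second Mvk probe set at -0.36.

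Pmvk, the kinase between Mvk and Mvd, was the exception. It measured 9.24, 9.54, 9.88 and 9.89 in SThdh111/111, against 9.45, 9.70, 9.76 and 9.63 in SThdh7/7. The lines overlapped, and the difference was 0.00 with a 95% interval of -0.31 to 0.31, from its 1 probe set.

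The enzymes at the branch point differed from each other. Farnesyl diphosphate synthase (Fdps) was at 12.35, 12.24, 12.56 and 12.56 in SThdh111/111, against 13.65, 13.66, 13.69 and 13.71 in SThdh7/7. Its difference of -1.25 ± 0.07 (SE; adjusted p = 2.9e-08) left 42.1% of the SThdh7/7 level, and the 4 SThdh7/7 arrays agreed to within 0.03 (SD). The second Fdps probe set was below the floor on all arrays. Ggps1, which adds the next isoprene unit to make the geranylgeranyl donor for protein prenylation, was at 8.14, 8.74, 8.99 and 8.73 in SThdh111/111, against 9.09, 8.95, 8.84 and 8.58 in SThdh7/7. Its 4 probe sets, all over the floor, gave differences of -0.30 to 0.15, none of them called.

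Fdps and Ggps1 were set against each other as a log2 ratio within each array. The ratio averaged 3.78 ± 0.32 in SThdh111/111 and 4.82 ± 0.24 in SThdh7/7 (SD, n = 4 each). The lines did not overlap, with an exact two-sided permutation p of 0.0286, the smallest that 4 against 4 arrays allow, and the same value after adjustment over the 3 pairs compared. The pairs were picked with their values known, so that these p-values describe the separation of the arrays and do not test it.

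On the route from farnesyl diphosphate to lanosterol all 3 genes fell. Squalene synthase (Fdft1), the enzyme that commits farnesyl diphosphate to sterols, was at 11.10, 10.95, 11.02 and 11.22 in SThdh111/111, against 12.15, 11.95, 12.09 and 12.07 in SThdh7/7. That is 50.3% of the SThdh7/7 level (difference of -0.99 ± 0.08, SE; adjusted p = 3.0e-07). Squalene epoxidase (Sqle), a rate-controlling enzyme of the sterol branch, fell by 0.48 ± 0.07 (SE; adjusted p = 2.9e-04), with 11.40, 11.24, 11.27 and 11.28 in SThdh111/111 against 11.64, 11.73, 11.94 and 11.80 in SThdh7/7. Lanosterol synthase (Lss) fell by 0.46 ± 0.10 (SE; adjusted p = 0.0046). The call of Lss did not hold throughout: without SThdh7/7 samples 1 and 2 its difference was -0.37 (adjusted p = 0.053), and its other bright probe set was not called (-0.41, adjusted p = 0.36).

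The 8 genes that turn lanosterol into cholesterol all fell, with a median difference of -0.92. Cyp51, the lanosterol demethylase, was at 11.14, 11.10, 11.13 and 11.17 in SThdh111/111, against 11.97, 11.92, 12.03 and 12.08 in SThdh7/7, with a difference of -0.86 ± 0.06 (SE; adjusted p = 1.6e-07). The sterol reductase gene Tm7sf2 fell by 0.89 ± 0.13 (SE) and the dehydrogenase gene Nsdhl fell by 0.96 ± 0.10 (SE). Nsdhl, Msmo1 and Hsd17b7 encode the parts of the complex that removes the methyl groups at carbon 4 of the sterol ring.

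Msmo1, the methyl oxidase of that complex, was at 12.04, 11.97, 12.08 and 12.14 in SThdh111/111, against 13.47, 12.93, 13.10 and 13.11 in SThdh7/7. It fell by 1.09 ± 0.10 (SE; adjusted p = 1.3e-06), on the 1 probe set over the floor. Hsd17b7, the ketosteroid reductase, was at 9.16, 8.80, 9.45 and 9.27 in SThdh111/111, against 10.38, 10.46, 10.37 and 10.40 in SThdh7/7. SThdh7/7 arrays were within 0.04 (SD) of each other, and the gene fell by 1.23 ± 0.12 (SE; adjusted p = 5.3e-06). Its 2 other called probe sets were at -1.96 and -1.78, so that the size of the fall depends on the probe set.

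The last steps were lower as well. Ebp, the sterol isomerase, measured 11.25, 11.11, 11.14 and 11.18 in SThdh111/111, against 12.24, 12.28, 12.22 and 12.19 in SThdh7/7, and had the lowest adjusted p of the 27 genes (difference of -1.06 ± 0.06, SE; adjusted p = 1.7e-08). Sc5d, the lathosterol desaturase, fell by 0.86 ± 0.08 (SE), and its 3 probe sets were all called, at -0.86, -0.83 and -0.62. Dhcr7, the 7-dehydrocholesterol reductase, was at 9.99, 9.67, 10.02 and 9.62 in SThdh111/111, against 10.52, 10.34, 10.41 and 10.49 in SThdh7/7, a difference of -0.62 ± 0.11 (SE; adjusted p = 6.4e-04).

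**Figure D2:**
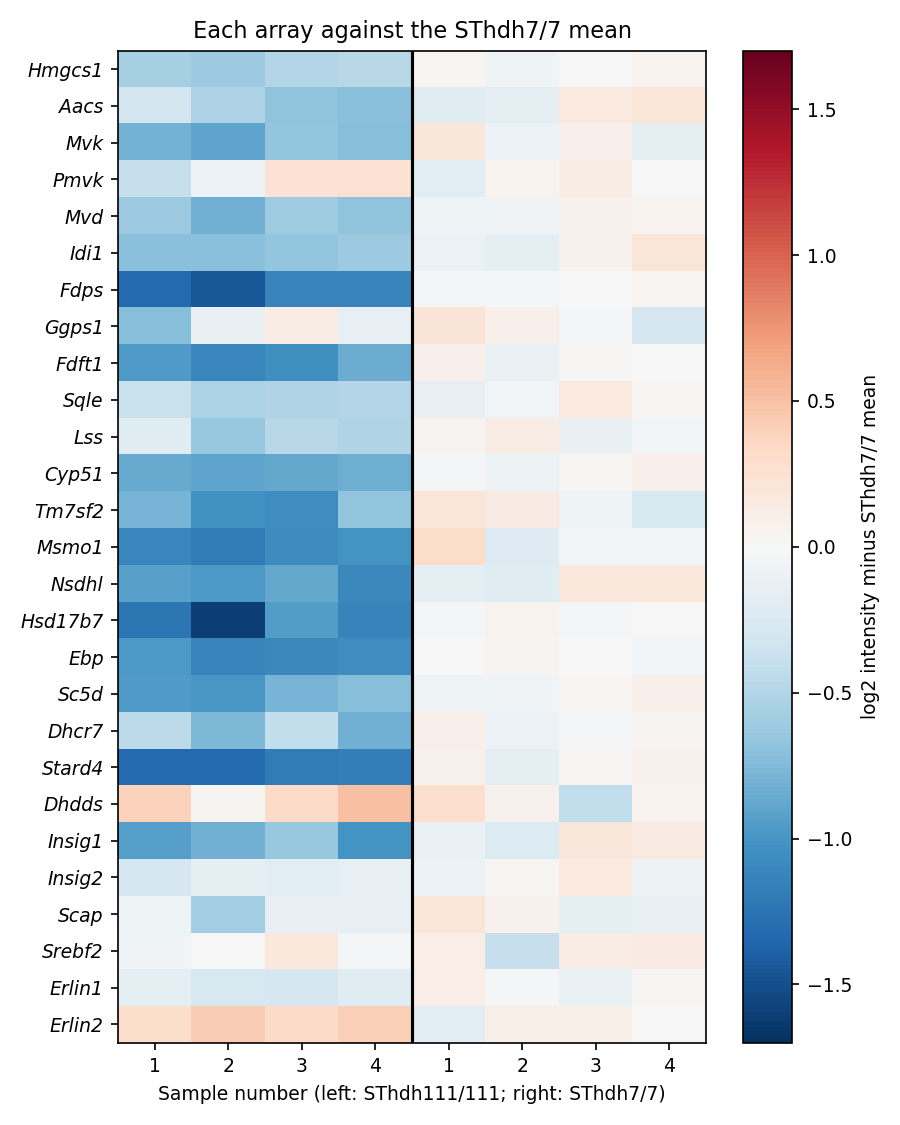
Log2 intensity of each gene's brightest probe set on each of the 8 arrays, minus its mean over the 4 SThdh7/7 arrays, in pathway order (blue lower, red higher). The 4 SThdh111/111 columns are blue for 19 called genes on every array, while Pmvk, Dhdds and Srebf2 show no such block and Erlin2 is red.

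Stard4, a soluble carrier that moves sterols between membranes and is itself an SREBP target, fell with the enzymes. It was at 9.41, 9.41, 9.55 and 9.56 in SThdh111/111, against 10.80, 10.58, 10.75 and 10.80 in SThdh7/7. The difference of -1.25 ± 0.09 (SE; adjusted p = 1.2e-07) left 41.9% of the SThdh7/7 level, and the other 2 probe sets differed by -1.56 and -1.01, both called.

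Dhdds, a subunit of the enzyme that makes dolichol for protein glycosylation, did not fall. It was at 9.93, 9.59, 9.87 and 10.06 in SThdh111/111, against 9.83, 9.62, 9.12 and 9.60 in SThdh7/7. The lines overlapped, the difference was 0.32 ± 0.15 (SE; adjusted p = 0.16), and the other 2 probe sets were at -0.28 and -0.10. It was called higher after centring (0.47, adjusted p = 0.041).

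Among the 6 regulators of SREBP 1 fell, 1 rose and 4 were not called. Of all genes 15.9% were lower and 13.1% higher, and of those over the floor on all 8 arrays 22.9% and 19.0%. Srebf2, the gene of SREBP-2 itself, was at 10.71, 10.77, 10.95 and 10.74 in SThdh111/111, against 10.88, 10.38, 10.90 and 10.91 in SThdh7/7. The lines overlapped, and the difference of 0.03 ± 0.11 (SE; adjusted p = 0.90) had a 95% interval of -0.22 to 0.27. The second Srebf2 probe set differed by 0.14 (adjusted p = 0.38). Scap measured 10.78, 10.27, 10.71 and 10.71 in SThdh111/111, against 11.06, 10.93, 10.70 and 10.73 in SThdh7/7, with a difference of -0.23 and a 95% interval of -0.49 to 0.02. Neither interval reaches the larger falls, those of Fdps, Stard4, Hsd17b7, Msmo1 and Ebp. The interval of Scap takes in the smaller falls of Sqle (-0.48) and Lss (-0.46), and that of Srebf2 does not.

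The INSIG genes encode close relatives, of which Insig1 is a strong SREBP target and Insig2 is known to be less dependent on it. Insig1 was at 10.92, 11.04, 11.21 and 10.84 in SThdh111/111, against 11.75, 11.63, 12.05 and 12.01 in SThdh7/7, a difference of -0.86 ± 0.11 (SE; adjusted p = 3.5e-05). Insig2 was at 10.29, 10.41, 10.40 and 10.44 in SThdh111/111, against 10.48, 10.60, 10.74 and 10.50 in SThdh7/7. Its arrays did not overlap either, but the difference of -0.19 ± 0.08 (SE; adjusted p = 0.125) was not called, and of its other probe sets 1 was (-0.35, adjusted p = 0.037) and 1 was not (-0.15).

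The change of Insig1 and Insig2 was unequal. Their log2 ratio within an array averaged 0.62 ± 0.17 in SThdh111/111 and 1.28 ± 0.20 in SThdh7/7 (SD, n = 4 each), without overlap (exact two-sided permutation p = 0.0286, likewise after adjustment). This pair too was picked with its values known, so that the p describes the separation and does not test it. The promoters of Insig1 and Insig2 are printed to show how they differ near the start site, marked as for Hmgcs1. That of Insig1 is chr5:28071162-28071411, plus strand, and that of Insig2 is chr1:121332590-121332839, minus strand, the first listed of its 3 start sites, both RefSeq, GRCm38.p6.

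Insig1: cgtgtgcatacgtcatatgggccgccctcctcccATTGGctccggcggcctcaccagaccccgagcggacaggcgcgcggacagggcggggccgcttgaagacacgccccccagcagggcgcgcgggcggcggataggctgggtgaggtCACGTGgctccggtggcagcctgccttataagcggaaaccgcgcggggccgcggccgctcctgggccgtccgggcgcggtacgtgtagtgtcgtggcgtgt
Insig2: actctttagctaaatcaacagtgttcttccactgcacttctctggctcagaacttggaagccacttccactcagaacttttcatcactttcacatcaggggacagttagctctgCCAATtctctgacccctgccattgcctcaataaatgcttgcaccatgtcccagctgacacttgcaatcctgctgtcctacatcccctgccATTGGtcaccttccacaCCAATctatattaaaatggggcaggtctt

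The Insig1 stretch holds 1 E-box and 1 CCAAT box on the other strand. The Insig2 stretch holds 3 CCAAT boxes and no E-box. Neither printed stretch holds TCACNCCAC in these letters, from which nothing follows about SREBP at these genes. Around the other listed start sites of Insig2 the search found the GC box, but no CCAAT and no E-box. The CCAAT boxes of Insig2 therefore belong to the printed start site only. Which start site these cells use was not tested.

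Erlin1 and Erlin2 form an ER complex that binds cholesterol and holds the SCAP and INSIG system in check. Of the 27 genes 1 was called higher, Erlin2, with 10.52, 10.64, 10.54 and 10.62 in SThdh111/111 against 10.02, 10.32, 10.31 and 10.21 in SThdh7/7 (0.37 ± 0.09, SE; adjusted p = 0.0062). This call was lost without the intensity trend in the test (adjusted p = 0.059). Erlin1 was at 10.34, 10.23, 10.21 and 10.29 in SThdh111/111, against 10.61, 10.48, 10.39 and 10.52 in SThdh7/7, and its difference of -0.23 ± 0.08 (SE) just missed the threshold (adjusted p = 0.0504). Their log2 ratio within an array, Erlin1 to Erlin2, averaged -0.31 ± 0.09 in SThdh111/111 and 0.29 ± 0.22 in SThdh7/7 (SD, n = 4 each), without overlap (exact two-sided permutation p = 0.0286, likewise after adjustment). As with the other pairs, the choice was made with the values known, so that the p does not test the separation.

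**Figure D3:**
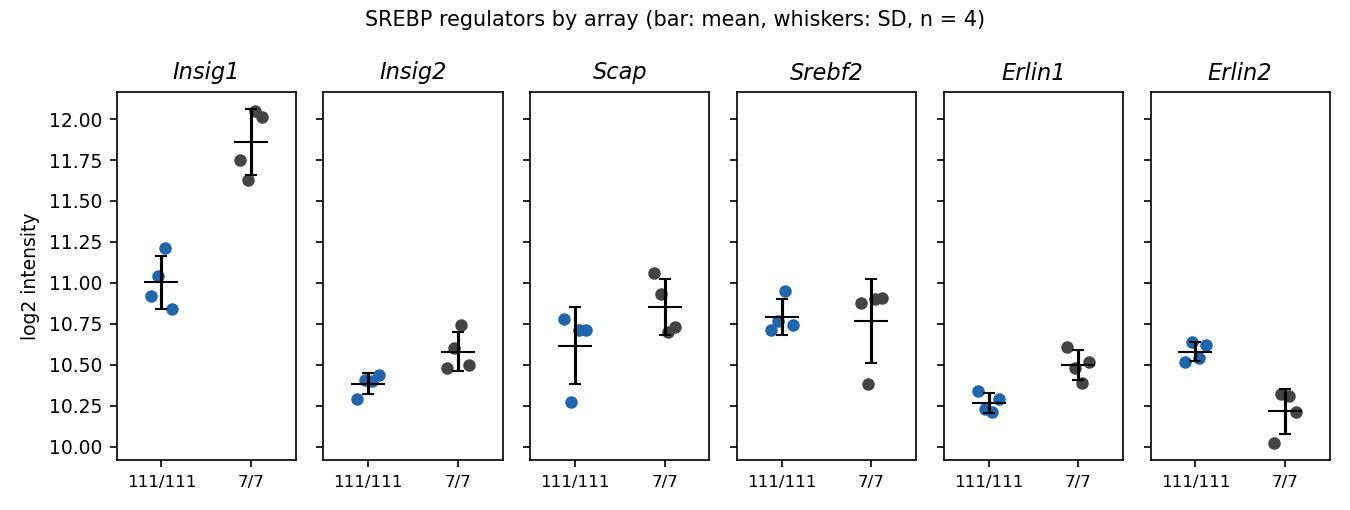
Log2 intensity of the 6 SREBP regulators on each array (points), SThdh111/111 on the left and SThdh7/7 on the right of each panel, with mean and SD (n = 4). The lines are apart for Insig1, Insig2, Erlin1 and Erlin2, of which Insig1 was called lower and Erlin2 higher, and they overlap for Scap and Srebf2.

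Replicates of a line were close. The SD over 4 arrays had a median of 0.11 over the 27 genes in SThdh111/111 (range 0.03 to 0.36) and of 0.13 in SThdh7/7 (range 0.03 to 0.30). Within SThdh7/7, samples 1 and 2 were both below samples 3 and 4 for 10 of the 27 genes, including Idi1, Nsdhl, Aacs and Insig1, beside 25.6% of the genes over the floor, and both above them for 6, beside 24.3%. Without samples 1 and 2, 18 of the 27 genes were called lower and the median difference was -0.73.

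Other genes known as SREBP targets, mostly of fatty acid synthesis, moved in both directions. Of 14 measured, 8 fell and 2 rose, with a median difference of -0.30, beside 15.9% lower and 13.1% higher of all genes. Of genes over the floor on all 8 arrays, 22.9% were lower and 19.0% higher. After centring of the arrays 2 were lower, beside 8.34% of all genes. The 2 higher became 0 without the intensity trend, and 1 without sample 2 or sample 3 of either line. Acly, which supplies cytosolic acetyl-CoA, was at 11.66 ± 0.06 in SThdh111/111 and 12.31 ± 0.07 in SThdh7/7 (SD, n = 4), a difference of -0.65 ± 0.06 (SE; adjusted p = 3.1e-06). Malic enzyme (Me1) fell by 0.87 ± 0.10 (SE) and the desaturase gene Scd2 fell by 0.53 ± 0.07 (SE), and the other bright probe sets of these 3 genes were called lower too. Srebf1, the gene of SREBP-1, unlike Srebf2 was called lower (-0.44 ± 0.08, SE; adjusted p = 0.0013). The remaining genes called lower were Scd1, Tmem97, Fasn and Elovl5. The phosphatidate phosphatase gene Lpin1 rose by 0.33 ± 0.09 (SE; adjusted p = 0.013) and the elongase gene Elovl6 by 0.34 ± 0.10 (SE; adjusted p = 0.020), each with 1 other bright probe set that was not called.

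Genes that use isoprenoids moved both ways, with 5 of 16 lower and 5 higher (median difference -0.13), beside 15.9% and 13.1% of all genes. The shares were 22.9% and 19.0% among genes over the floor on all 8 arrays. Those lower were 2 after centring, and 3 without SThdh111/111 sample 2, SThdh7/7 sample 1 or SThdh7/7 sample 2. Rabggtb, a subunit of the enzyme that prenylates Rab proteins, fell by 0.51 ± 0.09 (SE; adjusted p = 6.1e-04), Cox10, which farnesylates haem, fell by 0.60 ± 0.12 (SE) and Pdss2, the partner of Pdss1, fell by 0.45 ± 0.14 (SE; adjusted p = 0.032). Also among those lower were Fntb (-1.83 ± 0.40, SE; adjusted p = 0.0039) and Chml (-1.03 ± 0.29, SE; adjusted p = 0.019). In SThdh111/111 they were over the floor on only 1 and 2 of the 4 arrays. Fnta, the shared subunit of 2 protein prenyltransferases, rose by 0.36 ± 0.06 (SE; adjusted p = 3.1e-04) and Coq2, which attaches the ubiquinone tail, by 0.62 ± 0.11 (SE). Nus1, the partner of Dhdds, was higher by 0.54 ± 0.08 (SE; adjusted p = 2.8e-04) at its brightest probe set, while its 3 other bright probe sets were not called.

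Of 14 measured genes of the machinery that cleaves SREBP or degrades its partners in the ER, 6 rose and 0 fell (median difference 0.12), beside 13.1% higher and 15.9% lower of all genes. Of genes over the floor on all 8 arrays, 19.0% were higher and 22.9% lower. Without the intensity trend 3 were called higher, beside 9.52% of all genes. Rnf139, an ER ubiquitin ligase tied to sterol-regulated degradation, was at 10.94 ± 0.07 in SThdh111/111 and 9.86 ± 0.04 in SThdh7/7 (SD, n = 4), a rise of 1.08 ± 0.07 (SE; adjusted p = 1.1e-07). Mbtps1, the protease that makes the first cut in SREBP, rose by 0.75 ± 0.06 (SE; adjusted p = 9.4e-07), as did its second bright probe set. The ER ubiquitin ligase gene Rnf5 rose by 0.42 ± 0.09 (SE; adjusted p = 0.0025).

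On the side of the oxysterol receptors LXR, 3 of 8 measured genes rose and 0 fell (median difference 0.41), beside 13.1% higher and 15.9% lower of all genes. Mylip, an LXR-induced ubiquitin ligase gene, was at 12.03 ± 0.09 in SThdh111/111 and 9.60 ± 0.26 in SThdh7/7 (SD, n = 4), a rise of 2.43 ± 0.11 (SE; adjusted p = 2.2e-09). The sterol exporter gene Abcg1 rose by 1.03 ± 0.23 (SE; adjusted p = 0.0042). Also called higher was Cyp27a1 (0.88 ± 0.25, SE; adjusted p = 0.019), which was over the floor on 2 of the 4 SThdh7/7 arrays. The other 5 genes were not called, among them Abca1 (0.25, adjusted p = 0.18) and Lpcat3 (-0.27, adjusted p = 0.087). The count called higher rested on few genes and was 1 when all probe sets of a gene were averaged.

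**Figure D4:**
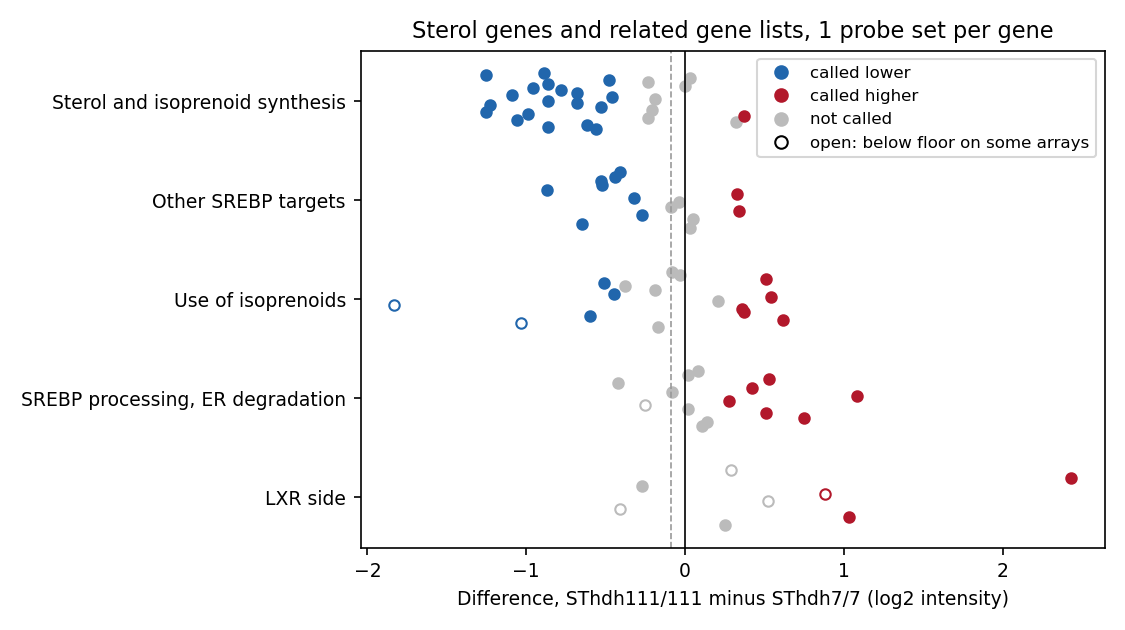
Differences in log2 intensity (SThdh111/111 minus SThdh7/7, horizontal axis) of each gene's brightest probe set in the sterol and isoprenoid list and 4 related lists, coloured by call, with open points where some arrays were below the floor. The sterol list lies mostly left of zero, with 19 of 27 called lower, and the list of SREBP processing and ER degradation has its 6 calls on the right.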

How the data were processed

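The deposited values are linear intensity values, 1 per probe set and array, from Affymetrix whole-genome mouse arrays (total RNA, biotin label, per the labels' protocols). The submitters' processing notes name GCRMA only, but the deposited intensity values have a mean of 500.0 on every array after trimming 2% from each end and run from 0.109 to 54853, which is how MAS5 or GCOS writes its signals. Which tool made them is not settled. Such signals are noisy when dim. Precision is limited by how many arrays there are.

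Groups were read from the sample titles. The 64 control probe sets were left out, log2 was taken, and a probe set had to reach a log2 of 4 on 4 or more arrays, which 41409 of 45037 did. Of the 45037, 34945 had 1 gene in the platform annotation, 932 several and 9160 none. Symbols were updated by Entrez number to GRCm38.p6. The floor is the highest array's 95th percentile of 27 bacterial control probe sets, an intensity of 130.0. This percentile was 72.0 to 77.5 on SThdh111/111 arrays and 98.7 to 130.0 on SThdh7/7 arrays.

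In R 4.3.3, limma 3.58.1 (lmFit, then eBayes with its trend option) was run on all kept probe sets. Tests were two-sided and p-values were adjusted by the Benjamini-Hochberg method over the whole table. The fit was also run on simulated independent normal values without shifts between arrays, which checks the code and not the calls in these data. Same-numbered samples of the lines did not deviate together (correlations -0.0144 to 0.00903), so the numbers pair nothing. Log2 ratios of gene pairs used exact permutation over arrays. The named genes were every listed gene and, from each related list, up to 3 called genes per direction with the lowest adjusted p and the brightest probe set over the floor in both lines. Outside this rule, cell type markers were named, and Fntb, Chml and Cyp27a1 for their values near the floor. Further genes of the other SREBP targets and of the LXR side were named to show the rest of these lists. Promoters were to be printed for called genes that hold TCACNCCAC; those of Insig1 and Insig2 were added after their values were seen. The alternatives were other filters, normalizations and probe set rules, no trend, a block for sample number, and leaving out samples. The genes, lists and alternatives were chosen with earlier results of these data known, and the mean over bright probe sets and the gene pairs after their values were seen. Figures were drawn with matplotlib 3.10.9.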

Additional observations from a re-analysis of the deposited data

Results flagged for a closer look

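Of 54 sets of 4 arrays, 27 genes in each line, 2 had an array far from the other 3, and about 1 in 20 is flagged by chance. Scap on SThdh111/111 sample 2 was at 10.27, against 10.71 to 10.78 on the other 3, and its difference was -0.12 without that array. Srebf2 on SThdh7/7 sample 2 was at 10.38, against 10.88 to 10.91, and its difference was -0.10 (adjusted p = 0.47) without it. Neither gene was called with or without these arrays.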

How the results depend on the processing

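Of the 19 genes called lower, 13 were called lower under all 18 alternatives. The call of Lss was lost under 4 of them. The number of genes called lower was 15 to 21, and 19 to 20 when 1 array was left out. The number of probe sets called lower was 23 when those that can match several transcripts were dropped, which leaves fewer to test. Centring gave 2 genes and 2 probe sets called higher and a median of -0.53, and no intensity trend gave 0 and 0. Averaging all probe sets of a gene, dim ones included, ended the calls of Fdps (-0.07), Hmgcs1 (-0.24), Msmo1 (-0.82), Aacs and Lss, none of which was lost when probe sets below the floor were left out of the mean (21 genes lower). Msmo1 was at -0.54 (adjusted p = 0.72) on the dim probe set left without its _a_at one. Sample number as a replicate block gave 19 genes and 34 probe sets lower, and changed no call among the 27 genes.

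Among genes that use isoprenoids 5 were lower, but 2 after centring, 3 with the filter at a log2 of 8, 3 with the replicate block, 3 without SThdh7/7 samples 1 and 2, and 3 to 5 with 1 array left out (3 without SThdh111/111 sample 2, SThdh7/7 sample 1 or SThdh7/7 sample 2). Of other SREBP targets 2 were lower after centring and 5 without the trend. Those higher were 0 without the trend, 1 without SThdh7/7 samples 1 and 2, 1 with probe sets averaged, 1 without probe sets that can match several transcripts, and 1 to 2 with 1 array left out (1 without samples 2 or 3 of either line). Of the SREBP processing list 3 were higher without the trend, and 1 was lower with either mean over probe sets. On the LXR side 1 was higher with all probe sets averaged, and 1 was lower with quantile normalization, the replicate block, the mean over bright probe sets or without SThdh7/7 samples 1 and 2, with 0 to 1 when 1 array was left out (1 without SThdh7/7 sample 2). The causes of these moves were not tested. The 11 probe sets not over the floor on all arrays gave no call in either direction.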
